A study of Mus musculus with 4 samples.

Results

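Transcripts of the Rab small GTPases were measured in mouse marrow cultures that form osteoclasts, the multinucleated cells of bone resorption. Members were taken by gene symbol, as the word Rab with a number and up to 2 lower-case letters. The pattern took 63 symbols with 139 probe sets, of 18193 genes and 34945 probe sets with 1 symbol. Of these symbols 59 (132 probe sets) name Rab GTPases. The other 4 are Rab3ip, an activator of Rab proteins, Rab5if, and the antisense transcripts Rab10os and Rab26os; they are given apart and are in none of the counts of Rab genes.

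The study had 4 groups of 1 array each, all from marrow of female C57Bl/6J mice aged 12 weeks. The labels do not say how many mice gave each sample or whether the days came from 1 culture. Day 1 was marrow on the day of its extraction. Day 4 was marrow kept for 3 days with 10 nM vitamin D3, the medium holding 10% serum. Days 5 and 7 were cells that had also received 20 ng/ml M-CSF, the growth factor of macrophages, and 40 ng/ml RANKL, the cytokine that drives osteoclast formation, with vitamin D3 kept at 10 nM. The labels count 4 and 6 days of differentiation for these last groups. None of the arrays analysed here is of day 5 or 7 without the cytokines, so cytokines and culture time cannot be told apart. With 1 array per group there is no replicate, no test and no p-value, and each value describes these 4 arrays.

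Rab proteins are molecular switches that mark the membranes of vesicles and organelles. They are active when bound to GTP, after an activator (a guanine nucleotide exchange factor, GEF) has removed GDP, and they are switched off by GTPase-activating proteins, most of which carry a TBC domain. A geranylgeranyl lipid attached to their end holds them in the membrane. In osteoclasts, fusion of late endosomal and lysosomal vesicles with the cell surface builds the ruffled border, the membrane that faces bone, and Rab7 is known to take part in it.

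All samples carry the label of primary osteoclast, the day 1 marrow included. Of 10 osteoclast marker genes 6 were above the detection floor used here on day 1, with Calcr, Dcstamp, Ocstamp and Oscar at the floor, and all 10 were above it on days 5 and 7. The floor was a signal of 32.4 units, the median of all deposited values, and signals under it were set to it before log2 differences, later minus earlier day, were taken. A gene above the floor on only 1 of the arrays compared has a bound, written as at least N-fold. A gene was counted as higher or lower at 2-fold or more (a threshold on size alone). Probe sets of 1 gene differed from each other with a pooled SD on the log2 scale of 0.41 for day 4 against day 1, 0.29 for day 5 against day 4, 0.26 for day 7 against day 5, 0.36 between days 7 and 4 and 0.53 for day 7 against day 1. It does not measure variation between cultures.

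Of the 59 Rab genes 42 were above the floor on all 4 arrays and 11 on some of them. The other 6, Rab3c, Rab9b, Rab17, Rab25, Rab26 and Rab39b, stayed at the floor.

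On day 7 over day 1, the widest comparison, 6 of 52 measured Rab genes were higher and 8 were lower. The 6 were Rab34, Rab33a, Rab13, Rab38, Rab3a and Rab4a, and the 8 were Rab44, Rab27a, Rab27b, Rab37, Rab43, Rab3d, Rab32 and Rab33b. Of all 11967 genes measured on these days, 12.7% were higher and 16.2% were lower, so the family's counts (11.5% and 15.4%) lay near the background. The median log2 difference was 0.06 for the Rab genes and 0.006 for all genes. The balance turns with the scaling of the arrays: 8 Rab genes were higher and 6 were lower after median scaling, and 8 were higher and 7 were lower after quantile normalization. Of all genes past 2-fold, 43.9% were higher with the values as deposited, 53.1% after median scaling and 56.2% after quantile normalization. Rab33b was just inside the threshold at 2.01-fold lower, and Rab11a just outside it at 1.87-fold higher.

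The shorter steps show when the members moved. For day 4 against day 1, 4 of 50 measured Rab genes were higher and 3 were lower, where 10.0% of all genes were higher and 8.65% were lower. For day 5 against day 4, none of 53 was higher and 3 were lower, where 2.02% of all genes were higher and 4.04% were lower. For day 7 against day 5, none of 51 was higher and 1 was lower, where 0.853% of all genes were higher and 5.84% were lower. For day 7 against day 4, the span with both cytokines, 2 of 52 were higher and 4 were lower, where 3.12% of all genes were higher and 9.12% were lower. The family's median log2 differences were 0.22, -0.08, -0.02 and -0.06 in these comparisons, against 0.06, 0.06, -0.11 and -0.09 for all genes. The plot of the family over all genes shows that most members lie inside the bands and that a few granule Rab genes lie far below them.

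**Figure D1:**
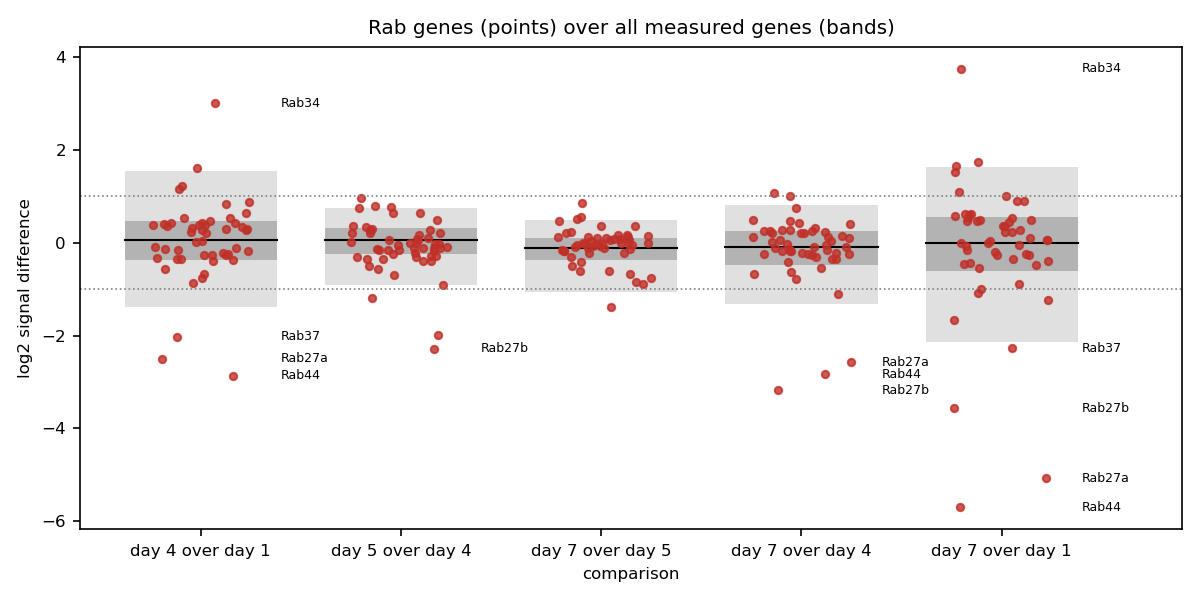
Each red point is a Rab gene's log2 signal difference in the comparison on the x axis, over grey bands that hold the 25th to 75th and the 5th to 95th percentile of all measured genes, with a black line at their median. Dotted lines mark 2-fold. Rab34 stands highest, at a log2 difference of 3.01 between days 4 and 1 and 3.75 for day 7 against day 1, and Rab44, Rab27a and Rab27b stand lowest on day 7 over day 1.

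The Rab genes of secretory granules and lysosome-related organelles held most of the members that were lower. Of the 12 genes of this group 9 were measured on day 7 over day 1, and 6 were lower, 2 were higher and 1 was neither, with a median log2 difference of -1.23. The other 43 measured members held 2 that were lower and 4 that were higher. Across all genes, 16.2% were lower in this comparison. The group was drawn up with earlier results of these data known, so its count is a description. Fewer cells of a type and less RNA per cell cannot be told apart in such bulk samples.

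Rab44 encodes an unusually large Rab protein with calcium-binding EF hands. Its only probe set had signals of 1691, 232, 58.5 and 10.0 on days 1, 4, 5 and 7. It was lower at every step, by 7.28-fold for day 4 against day 1, 3.97-fold between days 5 and 4 and at least 1.80-fold for day 7 against day 5. On day 7 it was at the floor, at least 52.1-fold below day 1.

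Rab27a, which docks secretory granules and melanosomes at the cell surface, stayed above the floor, so that its whole difference was measured. Its signals were 1451, 257, 112 and 43.0 on days 1, 4, 5 and 7, high in fresh marrow and lowest on day 7. It was 5.65-fold lower on day 4 than on day 1, 2.28-fold lower on day 5 than on day 4 and 2.62-fold lower on day 7 than on day 5. It was 33.8-fold lower on day 7 than on day 1. With the floor and probe sets used here, it was the only Rab gene past 2-fold for day 7 against day 5. Rab44 and Rab27b were at the floor on day 7 and have only bounds there, at least 1.80-fold and 1.86-fold lower. With the floor at the 25th percentile, or with 16 added, they were among the genes also past 2-fold. With the floor at the 60th percentile Rab27a was not. The other 3 probe sets named Rab27a were dim: 1 had 50.4 units on day 1 and was at the floor from day 4, and the others were at the floor on all days. The size of the difference thus rests on 1 probe set, and the mean over all 4 probe sets gave a log2 difference of -1.43 for day 7 against day 1, against -5.08 for the bright one. With that mean Rab27a was past 2-fold in no other comparison.

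Rab27b, its close relative and a Rab of platelet dense granules, was lower only later. The signals were 384, 294, 60.3 and 11.5 on days 1, 4, 5 and 7, so that days 1 and 4 were alike and days 5 and 7 were low. The log2 difference was -0.38 for day 4 against day 1. Day 5 was 4.87-fold below day 4, and day 7 was at least 9.06-fold below it. A second bright probe set, with 284, 281, 55.6 and 8.16 units, had the same course, with a log2 difference of -3.11 on day 7 over day 4. The dimmer 2 had -1.65 and -1.19, all in the same direction.

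Rab37, a Rab of secretory granules in mast cells, had signals of 157, 38.5, 3.66 and 5.50 on days 1, 4, 5 and 7 and was 4.08-fold lower on day 4 than on day 1. Day 7 was at least 4.84-fold below day 1. A second probe set was above the floor on day 1 alone, with 58.4 units. From day 5 the gene was at the floor on both probe sets.

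Rab3d and Rab32 were also lower but stayed well above the floor. Rab3d, a Rab of secretory vesicles, had 792, 432, 356 and 337 units on days 1, 4, 5 and 7, and was 2.35-fold lower on day 7 than on day 1. Most of that was already there on day 4 (log2 difference from day 1 -0.88). A probe set that was brighter on day 1 gave 1250.3, 331, 226 and 246 units and a difference of -2.35 on day 7 over day 1, and 2 more gave -2.37 and -0.96. All 4 probe sets of Rab3d were thus lower on day 7, and the one used for the gene was not the one with the largest difference.

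Rab32 and Rab38 are close relatives that act together in making melanosomes and other lysosome-related organelles, and here they ran in opposite directions. Rab32 had 3521, 2223, 1750.2 and 1662 units on days 1, 4, 5 and 7 and was 2.12-fold lower on day 7 than on day 1. Rab38 had 259, 350.1, 684 and 743 units and was 2.87-fold higher. The days with M-CSF and RANKL were the high ones for Rab38: it was 1.96-fold higher on day 5 than on day 4 and 2.12-fold higher on day 7 than on day 4. Besides Rab4a, which has only a bound, it was the only Rab gene past 2-fold higher over that time. A second Rab38 probe set had 176, 144, 410.5 and 527 units, with log2 differences of 1.51 for day 5 against day 4 and 1.87 for day 7 against day 4, larger than the 0.97 and 1.08 of the first. The probe sets differ for day 4 over day 1, at -0.29 and 0.44.

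Of the remaining genes of this group, Rab3a, the Rab of synaptic vesicles, had 159, 371, 427 and 343 units on days 1, 4, 5 and 7 and was 2.15-fold higher on day 7 than on day 1. That rests on a probe set of a class that can also match other sequences. The other probe set of Rab3a gave 50, 50.9, 48.8 and 43.4 units and a log2 difference of -0.20, so the direction of Rab3a depends on the probe set. Rab29, which acts at the Golgi and on lysosomes, had 1065, 889, 819 and 1060.0 units and was on the same level on days 7 and 1 (log2 difference -0.01). Rab3b was above the floor on day 5 alone, with 54.6 units, and Rab3c and Rab26 never were.

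**Figure D2:**
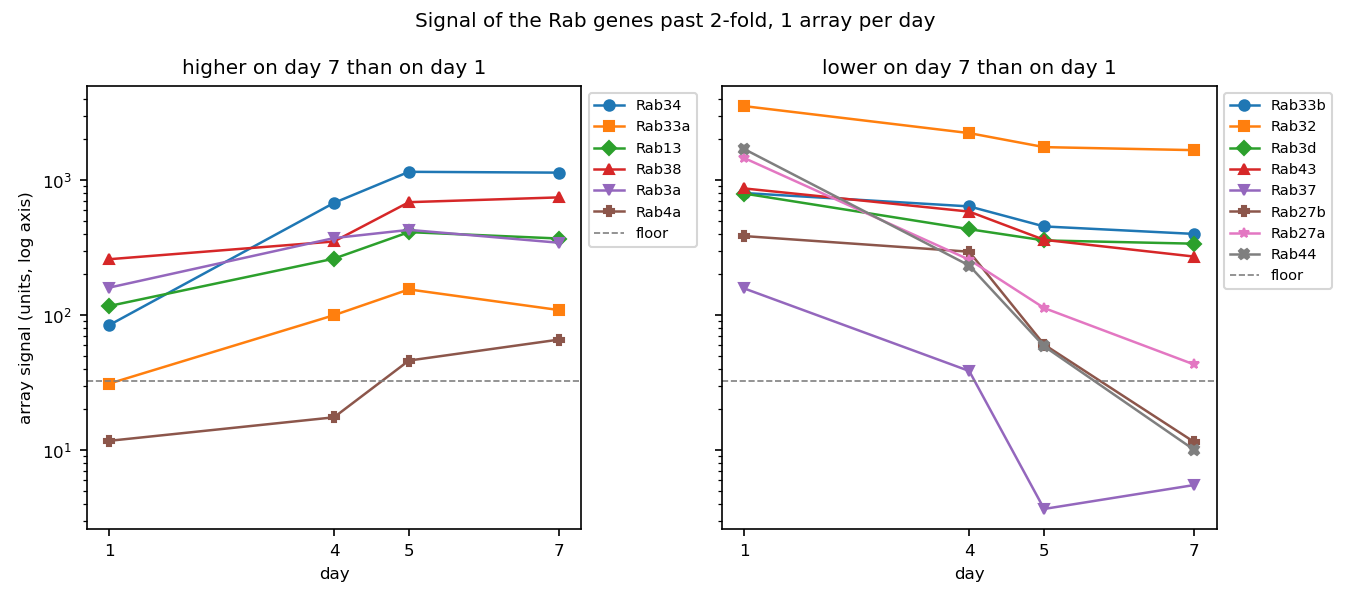
Array signal (y axis, log scale) by day (x axis) of the 14 Rab genes past 2-fold in at least 1 comparison, 1 array per day, with the floor dashed. On the left, Rab34 has the largest difference and Rab38 has its largest step at day 5; on the right, Rab44, Rab27b and Rab37 are under the floor on day 7 and Rab27a just above it, while Rab32, Rab3d and Rab33b stay well above the floor.

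Among the Rab genes of the endoplasmic reticulum, the Golgi apparatus and the traffic between them, Rab34 had the largest positive difference of the family measured above the floor on both days. Rab34 takes part in macropinocytosis, in the positioning of lysosomes and in forming cilia. Its signals were 84.1, 676, 1149 and 1133 units on days 1, 4, 5 and 7, low in fresh marrow and high on all days of culture. It was 8.04-fold higher on day 4 than on day 1, before any cytokine was added, and 13.5-fold higher on day 7 than on day 1. On day 7 over day 4 the log2 difference was 0.74. A second probe set gave 102, 572, 819 and 921 units, with differences of 2.49 between days 4 and 1 and 3.18 for day 7 against day 1.

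Rab33a and Rab33b, a pair of related Golgi Rabs, had opposite directions. Rab33a had 31.0, 99.6, 155 and 109 units on days 1, 4, 5 and 7 and was at least 3.35-fold higher on day 7 than on day 1. Its signal on day 1 was just under the floor, and with a floor of 68.9 units its log2 difference was 0.66. Rab33b, which also acts in autophagy, had 800.0, 637, 453 and 398 units and was 2.01-fold lower. Rab43, which works in traffic through the Golgi, had 865, 583, 360.0 and 271 units, lower on each later array, and was 3.19-fold lower on day 7 than on day 1 and 2.15-fold lower on day 7 than on day 4. A second Rab43 probe set had 204, 73.4, 35.3 and 19.1 units and a difference of -2.66 on day 7 over day 1, and the dimmest, near the floor, had -0.34. On day 7 over day 4 these probe sets had -1.18 and 0.05, so the dimmest did not share the direction. Rab43 was not past 2-fold in that comparison after median scaling, after quantile normalization or with the mean over probe sets.

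The core Rabs of export from the endoplasmic reticulum were less than 2-fold apart between days with the probe sets used here. Rab1a and Rab1b, which direct vesicles to the Golgi, had log2 differences of 0.53 and 0.50 on day 7 over day 1. Rab1a had 7026, 8513, 9607 and 10129 units on days 1, 4, 5 and 7. A second Rab1a probe set had 1728, 2567, 3002 and 3298 units and a difference of 0.93. The dimmest, at the floor from day 4, gave -1.14, a bound. Rab2a, which works on the way back to the endoplasmic reticulum, had 0.11, Rab6a of the Golgi -0.43 and Rab18 of lipid droplets and the endoplasmic reticulum 0.37. A second Rab18 probe set gave 0.82. Of the 15 measured genes of this group, 2 were higher (13.3%, against 12.7% of all genes) and 2 were lower (13.3%, against 16.2%) on day 7 over day 1, both near the background, with a median of 0.11. Rab2b, Rab19 and Rab39 differed by 0.47, -0.27 and -0.19. Rab6b, Rab30 and Rab36 were under the floor on 1 of these days and have only bounds. Rab6b was at least 1.85-fold lower and Rab36 at least 1.87-fold higher, and Rab30, with 32.6, 41.5, 19.1 and 6.14 units on days 1, 4, 5 and 7, was just above the floor on day 1. With the floor at the 25th percentile (8.43 units) Rab6b and Rab30 were past 2-fold, and after median scaling or quantile normalization Rab36 was. A second Rab36 probe set, brighter on day 1, had 54.4, 41.0, 35.7 and 22.0 units on days 1, 4, 5 and 7. Its log2 difference between days 7 and 1 was -0.75, also a bound. The direction of Rab36 thus depends on the probe set, and its remaining probe set stayed at the floor.

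The stretches of 250 bases before the start site are shown for the members with the largest differences on day 7 over day 1 that have a sequence in the RefSeq promoter table of GRCm38.p6, 2 that were higher and 2 that were lower, because they show which of these promoters hold the motifs searched. Capitals mark matches to CACGTG (the E-box), CATGTG (a related E-box; MITF and TFE factors, which act in osteoclasts, bind both) and TGANTCA (the AP-1 site), each on both strands. The sequences run 5′ to 3′ on the strand of the gene, and for a gene with several start sites the farthest upstream one was taken.
Rab34 (chr11:78188177-78188426, plus strand): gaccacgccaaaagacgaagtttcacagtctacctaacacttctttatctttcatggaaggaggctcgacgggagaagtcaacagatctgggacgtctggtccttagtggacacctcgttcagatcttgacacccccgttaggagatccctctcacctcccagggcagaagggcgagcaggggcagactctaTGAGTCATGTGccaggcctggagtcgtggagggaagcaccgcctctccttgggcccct
Rab33a (chrX:48519035-48519284, plus strand): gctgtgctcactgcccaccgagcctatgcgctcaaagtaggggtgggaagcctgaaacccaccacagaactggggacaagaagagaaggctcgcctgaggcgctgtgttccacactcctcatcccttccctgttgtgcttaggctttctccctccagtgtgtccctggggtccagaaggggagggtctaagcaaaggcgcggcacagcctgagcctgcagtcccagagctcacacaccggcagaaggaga
Rab27a (chr9:73044560-73044809, plus strand): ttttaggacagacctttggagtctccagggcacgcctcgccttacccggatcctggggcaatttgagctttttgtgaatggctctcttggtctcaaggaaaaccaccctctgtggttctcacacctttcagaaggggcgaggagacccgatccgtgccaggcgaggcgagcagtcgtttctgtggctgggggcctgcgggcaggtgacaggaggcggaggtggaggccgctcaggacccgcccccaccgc
Rab43 (chr6:87812165-87812414, minus strand): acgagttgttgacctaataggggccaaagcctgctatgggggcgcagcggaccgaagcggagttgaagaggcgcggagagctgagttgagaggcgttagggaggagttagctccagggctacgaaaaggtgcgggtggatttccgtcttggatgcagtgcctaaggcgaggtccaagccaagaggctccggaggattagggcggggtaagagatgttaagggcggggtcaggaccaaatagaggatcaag
Of these 4 stretches only that of Rab34 holds a match, an AP-1 motif and a CATGTG motif that share 2 bases, in TGAGTCATGTG. A second start site of Rab27a, farther downstream, has a CACGTG motif. In all, 48 Rab genes had 60 windows of 250 bases before to 50 bases after a start site. CACGTG was in 10.0% of these windows and in 7.15% of all 32851 windows, CATGTG in 10.0% and 14.2%, and TGANTCA in 5.00% and 7.81%. A match is a description of the letters and not of binding.

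Of the 8 measured Rabs of polarised export, junctions and cilia, Rab13 was the only one past 2-fold with the floor and probe sets used here (12.5% higher, against 12.7% of all genes on day 7 over day 1). Rab13 is known for carrying proteins to cell junctions. Its probe set had 116, 261, 411 and 368 units on days 1, 4, 5 and 7, and was 2.24-fold higher on day 4 than on day 1 and 3.16-fold higher on day 7 than on day 1. The levels on days 5 and 7 were close, with a log2 difference of -0.16. Rab8a, Rab8b and Rab10, which carry cargo from the Golgi to the cell surface, had differences of 0.07, -0.14 and -0.06 on day 7 over day 1. Rab23, a negative regulator of hedgehog signalling, had 125, 111, 192 and 119.9 units, highest on day 5, with differences of 0.80 for day 5 against day 4 and -0.68 for day 7 against day 5. A second probe set of Rab23 gave 56.1, 59.7, 111 and 51.2 units, also highest on day 5. Rab28 and Rab40c had differences of -0.46 and 0.46 for day 7 against day 1. Rab40b had 11.7, 22.4, 33.9 and 39.4 units on days 1, 4, 5 and 7, a bound of at least 1.21-fold for day 7 against day 1, and was past 2-fold with the 25th percentile floor.

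With the floor and probe sets used here, none of the early endosome and recycling Rabs was 2-fold lower in any of the 5 comparisons. Of all genes, 16.2% were lower on day 7 over day 1, and 4.04% to 9.12% in the other comparisons. A count of 0 among 13 or 14 measured genes thus says little. Only Rab4a, of fast recycling, was higher (1 of 14 measured genes on day 7 over day 1, 7.14%, against 12.7% of all genes). Rab11a was also past 2-fold there after median scaling, and Rab15 after quantile normalization. Rab4a had 11.7, 17.5, 45.9 and 65.7 units on days 1, 4, 5 and 7, at the floor on days 1 and 4, and was at least 2.02-fold higher on day 7 than on day 1. Its other probe set stayed at the floor, and with a floor of 68.9 units no difference remained. Rab11a, of slow recycling, had 3061, 4126, 5235 and 5723 units, higher on each later array, with a log2 difference of 0.90 on day 7 over day 1. A second Rab11a probe set had 896, 1069.8, 1240.2 and 1353 units and the same course. Its relative Rab11b had 1149, 902, 806 and 794 units and a difference of -0.53. The dimmer probe sets of Rab11b gave larger differences, -0.73 and -1.64. The last, with 147, 75.8, 39.5 and 46.9 units, was 3.13-fold lower on day 7 than on day 1. Rab17 and Rab25, known from epithelia, stayed at the floor.

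The Rab5 genes, whose products govern fusion of early endosomes, had log2 differences on day 7 over day 1 of 0.23 for Rab5a, -0.35 for Rab5b and 0.59 for Rab5c. Rab5c had 2845, 3705, 4301 and 4277 units on days 1, 4, 5 and 7. A second Rab5b probe set, with 173, 73.8, 33.6 and 27.9 units, gave a difference of -2.41, and Rab5b was past 2-fold lower there with the mean over its probe sets or a floor of 68.9 units. Rab14, of phagosomes and the Golgi, had 5992, 7788, 7740.0 and 9064 units and a difference of 0.60. Other probe sets of Rab14 gave 0.58, 0.64, 0.96 and 1.199 on day 7 over day 1. The remaining ones gave -0.86 and, with 205, 99.2, 49.5 and 31.0 units, -2.66, a bound. The direction of Rab14 thus depends on the probe set. Rab20, of phagosome maturation, had a log2 difference of -0.78 on day 7 over day 4. The 14 measured genes of the group had a median of 0.23 on day 7 over day 1. The others, Rab4b, Rab15, Rab21, Rab22a, Rab31 and Rab35, differed by between -0.27 and 0.63.

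The Rabs of late endosomes, lysosomes and autophagy, to which Rab7 of the ruffled border belongs, had no member past 2-fold in any of the 5 comparisons. With 6 measured genes, and 12.7% of all genes higher and 16.2% lower on day 7 over day 1, a count of 0 says little. With the 25th percentile floor Rab42 was past 2-fold on day 4 and on day 7, each over day 1. Rab7 had 4369.8, 6292, 6217 and 5947 units on days 1, 4, 5 and 7, with log2 differences of 0.53 for day 4 against day 1, -0.08 between days 7 and 4 and 0.44 for day 7 against day 1. Its second probe set gave 2550.4, 3272, 3322 and 3214 units and 0.33 on day 7 over day 1. Both probe sets of Rab7 were thus higher on days 4, 5 and 7 than on day 1, with similar levels on those days.

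Rab7b, which acts between endosomes and the Golgi, had 1782, 2579, 2316 and 2593 units and a log2 difference of 0.54 on day 7 over day 1. Rab9, of transport from late endosomes to the Golgi, had 1192, 1572, 1199.8 and 1543 units and 0.37. Rab12, which directs the transferrin receptor to lysosomes, had 347, 619, 571 and 532 units and 0.62. With the probe sets used here, Rab24, of autophagy, was the only one of the 6 measured genes below its day 1 level on day 7. It had 1728, 1027, 1110.4 and 1247 units and -0.47. A dim second probe set of Rab12, with 57.7, 56.1, 21.2 and 13.5 units, gave -0.83, a bound. The other probe sets of Rab7b gave 0.49 and, for the dimmest, -0.28. The directions of Rab12 and Rab7b thus depend on the probe set. Rab42 had 14.4, 40.1, 28.9 and 33.2 units, under the floor on day 1, so that its difference is only a bound. The median of the 6 was 0.41 between days 7 and 1 and -0.05 for day 7 against day 4, against 0.006 and -0.09 for all genes.

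**Figure D3:**
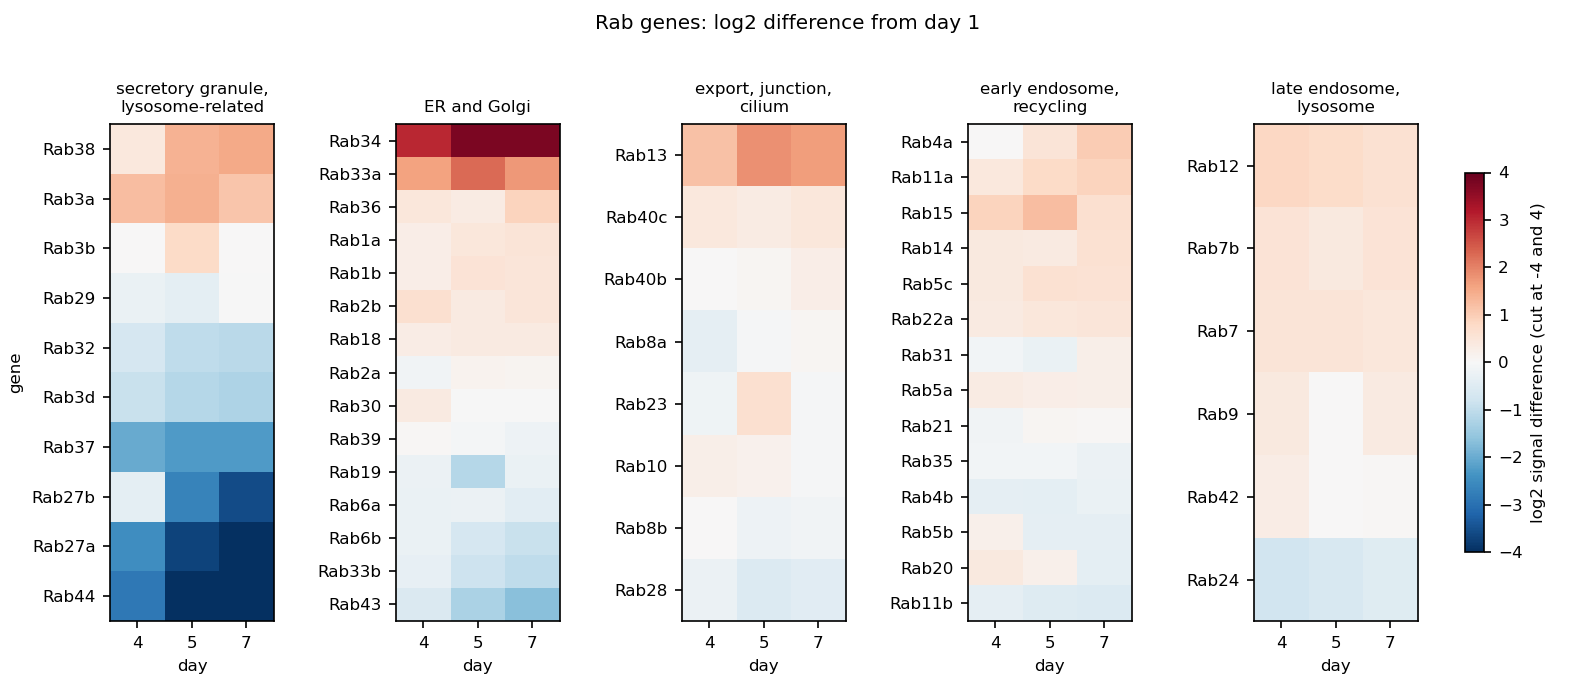
Log2 signal difference from day 1 (colour, cut at -4 and 4) on days 4, 5 and 7 for the 53 Rab genes above the floor on at least 1 array, in 5 panels by role and sorted by day 7. Rab44, Rab27a and Rab27b in the first panel are the darkest blue and Rab34 in the second the darkest red, while the panels of endosomes and lysosomes are pale.

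The genes of prenylation and membrane extraction encode the proteins that attach the lipid to Rabs and lift them off the membrane. None of the 7 measured genes was past 2-fold in any of the 5 comparisons. On day 7 over day 1, 12.7% of all genes were higher and 16.2% were lower. A count of 0 among 7 genes thus says little. Rabggtb, the catalytic subunit of the transferase that attaches the lipid, had 800.4, 1209, 1462 and 1455 units on days 1, 4, 5 and 7 and a log2 difference of 0.86 on day 7 over day 1, while its partner Rabggta had -0.03. Chm, the escort protein that presents Rabs to the transferase, had 0.17, and its relative Chml -0.66. Gdi2, which extracts inactive Rabs from membranes, had 8758, 8969, 9680.5 and 10198 units.

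Of 34 measured GEF genes, 3 were higher (8.82%, against 12.7% of all genes) and 10 were lower (29.4%, against 16.2%) on day 7 over day 1, with a median of -0.60. On day 7 over day 4, 1 was higher (2.94%, against 3.12% of all genes) and 5 were lower (14.7%, against 9.12%). Dennd4a, an activator of Rab10, was 9.62-fold lower on day 7 than on day 1, with 947, 185, 157 and 98.4 units on days 1, 4, 5 and 7 and most of the difference there by day 4. Rin3, an activator of Rab5 proteins, had 1563, 1079, 365 and 249.8 units and was 4.32-fold lower on day 7 than on day 4. Dennd1c had 584, 245, 114 and 89.6 units and Dennd5b 197, 68.5, 45.3 and 28.1, with day 7 below day 1 by 6.53-fold and by at least 6.07-fold. Those higher were Rin1, Rab3il1 and Sbf2, with Rin1, another activator of Rab5, at least 2.42-fold higher. Values of the listed regulators and effectors, here and below, rest on 1 probe set per gene. Whether other probe sets or other settings give the same sizes was not tested for them.

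Of 34 measured GTPase-activating proteins 2 were higher (5.88%, against 12.7% of all genes) and 6 were lower (17.6%, against 16.2%) on day 7 over day 1, so the lower count lay near the background. Against day 4, of 33 measured, 1 was higher (3.03%, against 3.12%) and 5 were lower (15.2%, against 9.12%) on day 7. Tbc1d10c, known from lymphocytes and able to inactivate Rab35, had 1063, 186, 65.8 and 30.1 units on days 1, 4, 5 and 7, with day 7 below day 1 by at least 32.8-fold. Its relative Tbc1d10a, an inactivator of Rab27a, had 265, 519, 290.0 and 243 units and was 2.14-fold lower on day 7 than on day 4. Tbc1d8 was 14.7-fold lower and Rabgap1l 8.48-fold lower on day 7 than on day 1. Sgsm3 was above the floor on day 7 alone, at least 3.32-fold higher, and Sgsm1 was at least 3.24-fold higher.

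Of 37 measured Rab effectors 4 were higher (10.8%, against 12.7% of all genes) and 7 were lower (18.9%, against 16.2%) on day 7 over day 1, near the background, with a median of -0.02. Unc13d and Sytl4, which bind Rab27, were among those lower. Unc13d (Munc13-4), which primes granules for release, had 673, 352, 132 and 118 units on days 1, 4, 5 and 7 and was 5.70-fold lower on day 7 than on day 1. Sytl4 (granuphilin) had 76.4, 140.3, 39.7 and 10.9 units, highest on day 4, and was 3.53-fold lower on day 5 than on day 4. Of the other Rab27 effectors listed, Sytl2 had 26.0, 68.3, 67.9 and 56.5 units and was at least 1.74-fold higher on day 7 than on day 1. Sytl1 was above the floor on day 1 alone, with 40.1 units, and Mlph, Myrip and Exph5 were at the floor on all days.

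The other effectors named here, some of them of Rab7, had no common direction. Rilp, which links Rab7 to the dynein motor, had 82.1, 219, 115 and 209.6 units on days 1, 4, 5 and 7 and was 2.55-fold higher on day 7 than on day 1. Rilpl1 was higher on each later array, with 136, 188, 288 and 443 units, 2.35-fold higher on day 7 than on day 4. Plekhm1, a Rab7 effector whose loss causes osteopetrosis, had 1145, 1218, 939.9 and 1059.9 units and a difference of -0.11. Fyco1, which links Rab7 to kinesin, was 2.27-fold lower on day 7 than on day 4, and the kinase gene Lrrk1 2.45-fold lower on day 7 than on day 5. Mical1 and Rph3al were 3.32-fold and 2.39-fold lower on day 7 than on day 1.

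The arrays with lower signals of the granule Rab genes also had lower signals of marker genes of blood cells rich in granules. The summed signal of 10 neutrophil markers was 114093, 68753, 37207 and 5328 units on days 1, 4, 5 and 7, the last with Elane at the floor. On day 7 all 10 were past 2-fold below day 1, with a median log2 difference of -5.63. For 9 markers of mast cells, basophils and eosinophils the sums were 17654, 1976, 1167 and 227 units, and 7 of the 9 were lower on day 7 than on day 1. The receptor genes Ms4a2 and Fcer1a of mast cells and basophils and Epx of eosinophils were at the floor from day 4. Other members of the list did not have that course: the basophil gene Mcpt8 had 451, 397, 603 and 75.9 units, most of the day 5 sum, and Gata2 had 114, 135, 138 and 95.8.

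Of the platelet markers, 8 of 9 had a course like that of Rab27b, lower from day 5 and not on day 4, and Pf4 did not. The sums of 9 such markers were 17615, 22306, 15166 and 8405 units on days 1, 4, 5 and 7. Pf4 alone had 8628, 10990.2, 11871 and 8027 units and makes up most of the sums of days 5 and 7. None of the 9 was 2-fold lower on day 4 than on day 1, 8 were lower on day 5 than on day 4, and Gp9, Gp5 and Gp1bb were at the floor on day 7. The B cell sum of 9 markers was 7393, 2537, 727 and 288 units and the red cell sum of 8 markers 25630.4, 349, 419 and 347; 6 red cell markers were at the floor from day 4. The part of these cells in the Rab differences was not tested.

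Some marker lists had higher sums in culture than on day 1, and Rab34 and Rab13 were also higher on all days of culture. Rab38 was higher on days 5 and 7, and its probe sets differed for day 4 over day 1 (0.44 and -0.29). The summed signal of 10 stromal and osteoblast markers was 3038, 26537, 36254 and 20613 units on days 1, 4, 5 and 7, with Postn at the floor throughout. Its median log2 difference on day 7 over day 5 was -1.31, with 6 of 9 measured markers past 2-fold lower, but Tagln (-0.001) and Cxcl12 (0.09) of the same list were level. Those of Rab34, Rab13 and Rab38 in that comparison were -0.02, -0.16 and 0.12. The sum of the 10 osteoclast markers was 8533, 27813, 46872 and 55361 units, higher on each later array. The 10 macrophage markers summed to 38008, 59835, 58410.3 and 58762, and the 10 endothelial markers to 1331, 1338, 1053 and 635. Which cells carried the Rab transcripts was not tested.

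**Figure D4:**
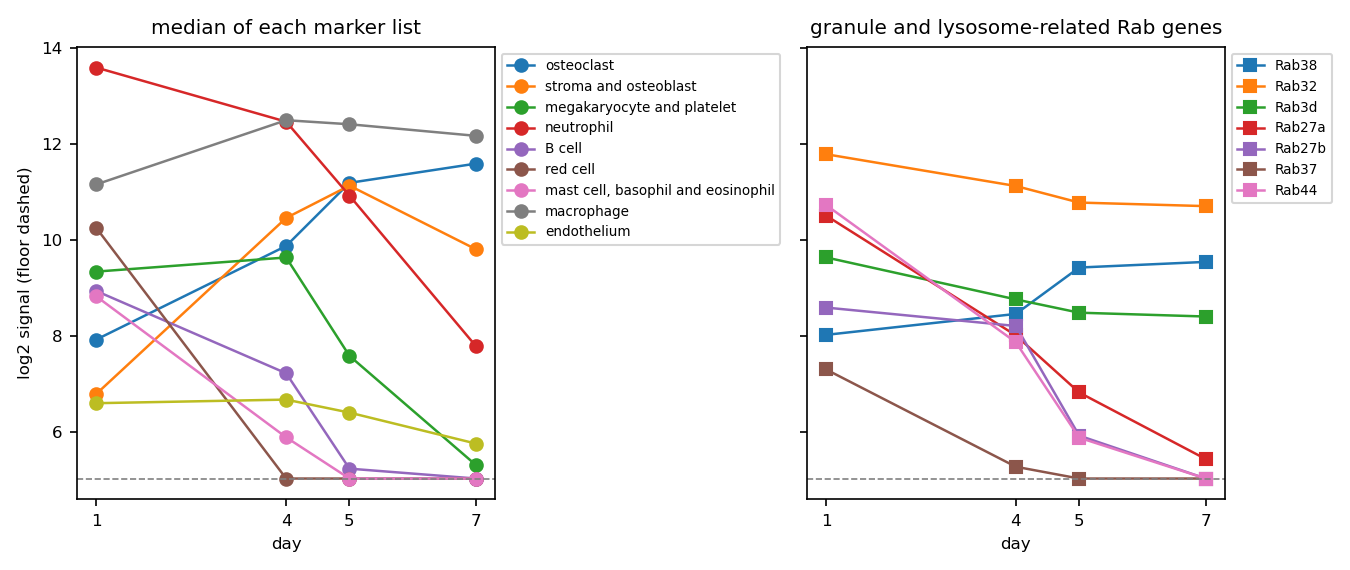
Left, median log2 signal of each marker list by day; right, log2 signal of 7 Rab genes of granules and lysosome-related organelles by day, with the floor dashed and 1 array per day. The platelet line and Rab27b are level between days 1 and 4 and lower afterwards, Rab44, Rab27a and Rab37 are lower from day 4, as are the lines of neutrophils, B cells, red cells, and mast cells, basophils and eosinophils, and Rab38 is higher on days 5 and 7.

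The number of probe sets behind a value differs between members: 21 of the 59 Rab genes have 1 probe set and 38 have several. Rab44, Rab13, Rab32, Rab33a and Rab33b rest on 1 probe set each. For Rab34, Rab38, Rab27a, Rab27b, Rab37, Rab3d and Rab43, every other probe set above the floor on day 7 or day 1 differed between them in the gene's direction, from 3.18 for Rab34 to -3.13 for Rab27b on the log2 scale. Rab3a is the member of the 14 whose probe sets disagree in direction on day 7 over day 1.

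**Figure D5:**
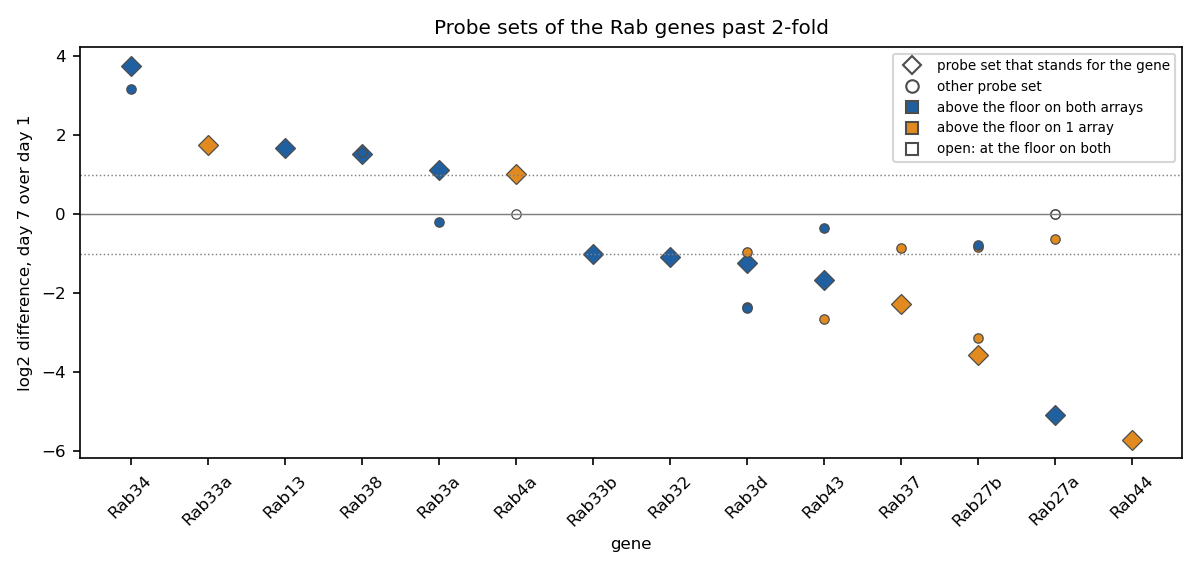
Log2 difference on day 7 over day 1 (y axis) of each probe set of the 14 Rab genes past 2-fold (x axis); diamonds are the probe sets that stand for the gene, circles the others, blue those above the floor on both arrays, orange on 1, open on none. The probe sets of Rab34 and Rab38 lie close together, those of Rab27a and Rab27b far apart, and those of Rab3a on both sides of 0.

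Of the 4 other symbols of the pattern, Rab3ip had 144, 147, 255 and 207 units on days 1, 4, 5 and 7, with a log2 difference of 0.80 on day 5 over day 4. Rab5if had 5258, 5447, 6351 and 6793 units and 0.37 on day 7 over day 1. Rab10os had 381, 431, 348 and 357 units, and Rab26os, with 60.8, 74.0, 87.6 and 39.2 units, was 2.23-fold lower on day 7 than on day 5, past 2-fold in that comparison alone.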

How the data were processed

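Per the labels' protocols, RNA was purified by Trizol and then RNeasy, and biotin-labelled cRNA was made from 250.0 ng of it. The values deposited by the authors are probe set signals, an intensity on a linear scale; the submitters' processing notes name GCOS 1.4 and MAS5. No scaling target, detection call or probe-level data was used here. Of 45101 probe sets the 64 controls were left out, and 34945 had 1 symbol in the platform annotation. Per array, 46.6% to 52.6% of probe sets were above the floor of 32.4. Precision is limited by having 1 array per day.

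Where a gene had several probe sets, the brightest over the 4 arrays (mean log2 signal after the floor) stood for it. A gene was measured in a comparison if above the floor on at least 1 of its arrays. The 5 comparisons used log2 differences, with no test. Values on all days were given for Rab genes past 2-fold in any comparison and for Rab7, Rab38, Rab32, Rab3d, Rab27a, Rab27b, Rab44, Rab13, Rab5c and Rab11a. The rule also allowed up to 4 genes of each pathway list and comparison and every other Rab gene; Gdi2, Rabggtb, Rabggta, Chm, Chml, Plekhm1, Tbc1d10a, Rab3il1, Sbf2, Sytl1, Mlph, Myrip and Exph5, and the markers, were named after their values were seen. Lists were matched by symbol or RefSeq synonym; 34 of 35 GEFs, 34 of 34 GTPase-activating proteins, 7 of 8 prenylation genes and 40 of 45 effectors were found, and the rest were not analysed here. Members and lists were chosen with earlier results of these data known. A planned comparison of Rab protein sequences was not made. Alternatives were 2 other floors (8.43 and 68.9), 16 added with no floor, quantile and median scaling, the mean over probe sets, and leaving out probe sets that match several transcripts. The counting was tested on simulated data, and the motif search on short known sequences. Python 3.11.15, numpy 2.4.6, pandas 2.3.3 and matplotlib 3.10.9 were used.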

Additional observations from a re-analysis of the deposited data

How the results depend on the processing

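Of the 14 Rab genes past 2-fold on day 7 over day 1, between 12 and 14 remained past it in the same direction under each of the 7 alternatives; those lost under some were Rab33b, Rab32, Rab33a, Rab3a and Rab4a. Rab3a was reversed without probe sets that match several transcripts (-0.20). Of 441 values of single genes under the alternatives, 384 moved by no more than the SD between probe sets. The counts moved as follows, and the cause was not tested beyond the setting itself. For day 7 against day 1, 9 Rab genes were higher with the floor at the 25th percentile, 8 after median scaling and after quantile normalization, and 4 with the floor at the 60th percentile, the mean over probe sets or no probe sets that match several transcripts, against 6; 6 to 10 were lower, against 8, with 6 after median scaling and 7 after quantile normalization. Day 4 against day 1 gave 3 to 5 higher, against 4, and 3 to 4 lower, against 3. On day 5 over day 4, 2 Rab genes were higher with the floor at the 25th percentile and 1 each with 16 added and with the mean over probe sets, against 0; 5 were lower with the 25th percentile floor, against 3. On day 7 over day 4, 1 was higher with the floor at the 60th percentile, with the mean over probe sets and without probe sets that match several transcripts, against 2; 7 were lower with the 25th percentile floor and with 16 added, and 2 with the mean, against 4. On day 7 over day 5, 1 (Rab19) was higher after quantile and after median scaling, against 0; 6 were lower with the 25th percentile floor, 4 with 16 added, 2 without probe sets that match several transcripts, 0 with the 60th percentile floor and 0 with the mean, against 1. Counting all 63 symbols of the pattern, chosen after seeing the data, gave 2 there. The all-gene median on day 7 over day 1 was 0.006 as deposited, 0.17 after quantile and 0.14 after median scaling, and the Rab median lay 0.06, 0.006 and 0.07 above it. Of all genes past 2-fold, the share that was higher was 43.9%, 56.2% and 53.1% for day 7 against day 1, 25.5%, 43.7% and 39.9% for day 7 against day 4, and 12.7%, 31.6% and 27.2% for day 7 against day 5, in the same order of scalings. Rab27a depends on its bright probe set: the mean over its probe sets gave -0.78 for day 4 against day 1, -0.30 for day 5 against day 4, -0.64 between days 7 and 4 and -0.35 for day 7 against day 5. No paired analysis was possible because each group holds 1 array.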
